A study of Homo sapiens with 12 samples.

Results

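The mitochondrial genome gave 34 of the 36502 genes in the count table: all rows placed on chromosome MT, in all 12 libraries. They were 13 mRNAs, 2 rRNAs and 19 tRNAs. In the table, 22 of the 34 carried placeholder names, and all 34 were named here by Ensembl identifier. GENCODE release 29 gives each of them the same start and end, and strands were taken from it. GENCODE lists 37 genes on this chromosome, and the tRNAs MT-TQ, MT-TN and MT-TS1 were not analysed here.

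RNA came from HT1080 cells, a human fibrosarcoma line, in 2 clones. One carried the m6A-Tracer, a green fluorescent protein fused to a protein domain that binds adenine-methylated DNA, and is called the GFP clone; the other carried the tracer fused to VP16, a viral activation domain, and is called the VP16 clone. Cells of both clones were compared in 3 conditions, and all had doxycycline, whose removal induces the tracer. Uninduced cells had 50 ng/ml doxycycline for 4 days. Tracer cells had doxycycline for 3 days and none for the last 24 hours, to induce the tracer. Tracer-Dam cells were treated like tracer cells but had 500 nM Shield1 in those last 24 hours to induce Dam-LaminB1, a bacterial adenine methyltransferase fused to the nuclear lamina protein lamin B1. No sample came from cells without a tracer construct, and each construct was represented by 1 clone, so effects of the construct and of the clone cannot be told apart. The 6 groups held 2 libraries each, called biological replicates in the study's design. How separate the cultures were is not described, so p-values measure the spread between these libraries. The libraries formed 2 sets of 6 that reused the same 6 index sequences, with 1 library of every group in each set. They are called index set 1 and index set 2.

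Human mitochondrial DNA is transcribed from both strands into long precursors that cover nearly the whole circle. The tRNAs lie between most of the other genes, and cutting them out at both ends frees the mRNAs and rRNAs, a scheme known as tRNA punctuation. The mRNAs encode core subunits of respiratory complexes I, III and IV and of the ATP synthase, complex V. Most receive a poly(A) tail, which for several of them also completes the stop codon. The rRNAs carry only short tails. All proteins that transcribe, cut, tail and translate these RNAs come from nuclear genes. The libraries were made from Trizol-extracted total RNA with a TruSeq RNA kit, a kit type that usually selects poly(A) RNA. The labels do not say whether this was done.

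The gene order bears on what a count means, because neighbours abut. MT-TF and MT-TV, which decode phenylalanine and valine, and the rRNAs MT-RNR1 and MT-RNR2 follow each other with 0 bases between them. The sequences show these junctions, from GENCODE release 29, with the tRNA in capitals and the rRNA in lower case. The first is MT:577-677 and the second MT:1572-1700, both on the plus strand. They are shown because the 12S rRNA and both tRNAs had higher values in index set 2 in every group, as described further on.
MT-TF and the start of MT-RNR1: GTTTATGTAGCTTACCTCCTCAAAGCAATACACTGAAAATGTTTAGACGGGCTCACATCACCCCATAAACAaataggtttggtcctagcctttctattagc
end of MT-RNR1, MT-TV and start of MT-RNR2: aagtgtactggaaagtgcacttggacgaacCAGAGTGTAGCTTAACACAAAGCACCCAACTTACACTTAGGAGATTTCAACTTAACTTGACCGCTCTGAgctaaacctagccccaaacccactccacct
A read across such a border comes from a precursor that was not cut there. How reads over a border were counted is not stated in the labels.

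Protein-coding neighbours overlap at 2 places by more than 1 base. MT-ATP8 and MT-ATP6 share 46 bases, and MT-ND4L and MT-ND4 share 7 bases; each pair sits on 1 mature mRNA with 2 reading frames. The end of MT-ATP8 (MT:8513-8572, plus strand) and the end of MT-ND4L (MT:10707-10766, plus strand) are shown with the shared bases in capitals.
end of MT-ATP8: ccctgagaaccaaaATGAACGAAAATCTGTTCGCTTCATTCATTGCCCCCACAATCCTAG
end of MT-ND4L: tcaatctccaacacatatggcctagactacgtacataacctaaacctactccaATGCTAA
Reads in shared bases belong to both genes, so the separate counts of the paired genes are uncertain.

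Of the 13 mRNAs, 6 have a length that is not a multiple of 3, because the genome supplies only the first base or bases of the stop codon. The last 30 bases of the 4 mRNAs with the largest differences between index sets, and of 2 that were not called, are printed with the last codon, or the part of it that is encoded, in capitals.
end of MT-CO1: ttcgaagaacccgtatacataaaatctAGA
end of MT-CO2: tttgaaatagggcccgtatttaccctaTAG
end of MT-ND4: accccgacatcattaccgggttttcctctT
end of MT-CYB: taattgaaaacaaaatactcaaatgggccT
end of MT-ND2: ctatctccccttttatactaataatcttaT
end of MT-ND5: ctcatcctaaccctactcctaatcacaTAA
MT-CO1 (MT:7416-7445), MT-CO2 (MT:8240-8269) and MT-ND5 (MT:14119-14148) end in a full codon. MT-ND4 (MT:12108-12137), MT-CYB (MT:15858-15887) and MT-ND2 (MT:5482-5511) end in a lone T, to which the tail adds the rest. Both kinds of ending occurred among these 4 mRNAs with large differences and among these 2 without a call. Whether the ending had a part in the differences was not tested.

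Total counts per library ranged from 18774905 to 24827396. GFP tracer and GFP tracer-Dam of index set 1 stood apart from the other 10 libraries on the first principal component (-78.2 and -87.0, against -16.2 to 41.0), which held 45.4% of the variance. In those 2 libraries the integrated stress response gene DDIT3 was at 93.6 and 77.4 CPM (the counts-per-million unit), against 4.74 to 8.12 elsewhere, and LMNB1, which encodes lamin B1, was at 36.9 and 29.5 CPM, against 122 to 203. Differences between index sets and between clones are therefore given with and without them. The 17 fibroblast markers together held 7215 to 11250 CPM per library (VIM 1745 to 4206), and the 8 epithelial markers 3.21 to 15.8 (EPCAM at most 0.245). The 7 blood markers held 118 to 338, nearly all of it CD68 (PTPRC at most 0.0890), and the 5 muscle markers at most 0.661. Levels within the lists were uneven. Of the fibroblast markers, COL1A1 was at 9.67 to 22.3 CPM and THY1 at most 0.814. Of the epithelial markers, CLDN4 was at 2.39 to 4.75. ESRP1 was at 6.77 and 10.7 in GFP tracer and GFP tracer-Dam of set 1, and at most 0.378 elsewhere.

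Mitochondrial transcripts held 3.30% to 4.00% of all counts, and the index set, not the clone or the condition, separated the libraries. In set 1 the share was 3.84% in uninduced GFP cells, 3.65% with the tracer and 3.92% with tracer and Dam; in the VP16 clone it was 4.00%, 3.84% and 3.99%. In set 2 the same groups held 3.30%, 3.38% and 3.45% for GFP, and 3.33%, 3.41% and 3.40% for VP16. Every library of set 1 was above every library of set 2. Group means were 3.57% ± 0.378 (SD, n = 2) for uninduced GFP cells, 3.52% ± 0.192 with the tracer and 3.68% ± 0.332 with Dam. They were 3.66% ± 0.476, 3.62% ± 0.307 and 3.70% ± 0.416 for the VP16 clone. Each group held 1 library of each set, so the spread between its 2 libraries includes the difference between sets. The group means differed by less than this spread. Counting error was small beside this, with a 95% Wilson interval of at most 0.00887 percentage points on either side. In bulk RNA, fewer cells of a kind and less RNA per cell cannot be told apart.

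The 3 classes did not move together. The mRNAs held 3.36% to 3.61% of counts in set 1 and 2.84% to 3.04% in set 2, without overlap. The rRNAs held less in set 1, at 0.280% to 0.379%, than in most libraries of set 2, at 0.357% to 0.533%, with overlap. As a share of mitochondrial counts alone, rRNA made up 7.68% to 9.87% in set 1 and 10.5% to 15.5% in set 2. The tRNAs summed to 91.2 and 94.4 CPM in GFP tracer and GFP tracer-Dam of set 1, and to 121 to 159 in the other 10 libraries. The tRNA sums of the 2 sets overlapped with both libraries in (91.2 to 144 in set 1, 123 to 159 in set 2) and with both left out.

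**Figure D1:**
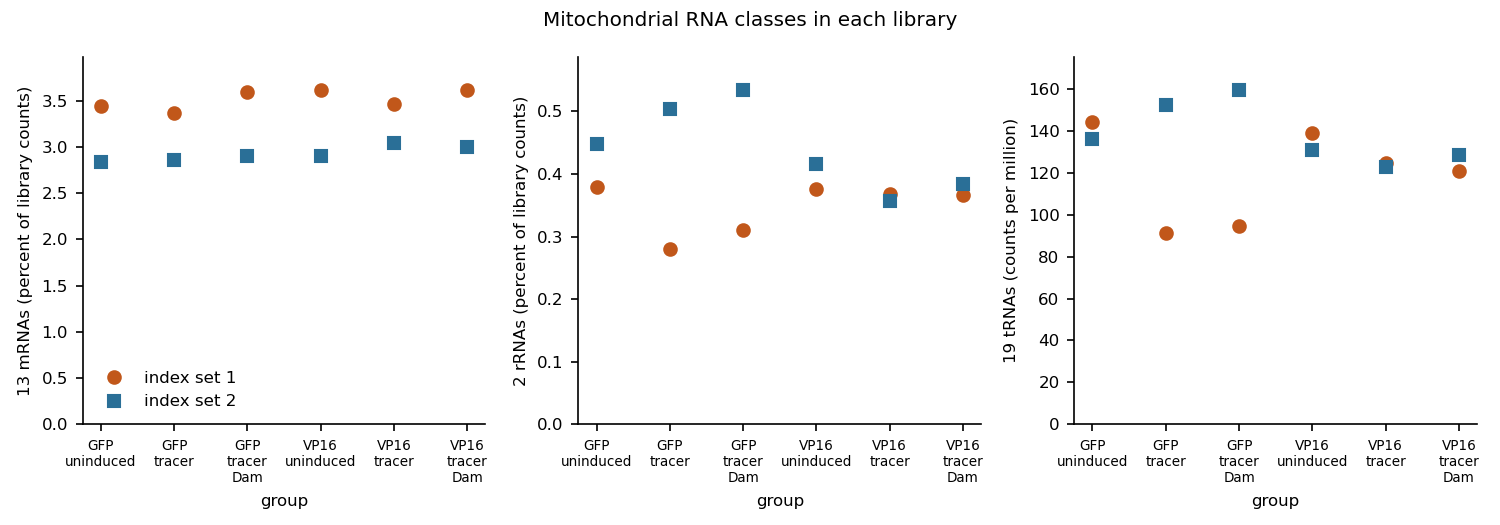
Share of library counts held by the 13 mRNAs and the 2 rRNAs (percent) and by the 19 tRNAs (CPM), by group, with 1 point per library and the index set as colour and shape. The mRNA share of every set 1 library lies above 3.3% and that of every set 2 library below 3.1%, while GFP tracer and GFP tracer-Dam of set 1 have the lowest rRNA and tRNA values.

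Within the mRNAs, levels were compared per length, as CPM per kb of gene, on plain library totals. MT-CO3, a core subunit of complex IV, was highest at 4401 ± 254 (SD, n = 12). MT-ND4 of complex I followed at 3882 ± 623, below MT-CO3 in 10 of 12 libraries. MT-ATP6, the proton channel subunit of the ATP synthase, was at 3483 ± 300.4. MT-CO2, MT-CO1, MT-ND2 and MT-ND4L lay close together at 3249, 3196, 3150 and 3073, and MT-CO2 exceeded MT-CO1 in only 6 of 12 libraries. Over the 12 libraries these means lay within their spread, but the order of MT-CO1 and MT-ND2 differed between the index sets. MT-CO1 had a mean of 3909 in set 1 and 2484 in set 2, and MT-ND2 of 3095 and 3205. MT-CYB, the complex III subunit, and MT-ND3 were at 2473 and 2470, with MT-CYB the higher in 6 of 12 libraries. MT-ATP8 and MT-ND1 were at 2080 ± 175 and 2070 ± 180, in an order that held in 5 of 12 libraries. MT-ND5 at 1639 ± 145 and MT-ND6 at 1176 ± 145, both of complex I, ranked 12 and 13 in all 12 libraries. MT-ND6 is the only mRNA of the opposite strand and is known to lack a long poly(A) tail. The strand setting of the counting is not stated, so the MT-ND6 row may also hold reads of the other strand. The highest mRNA stood 3.74 times above the lowest.

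**Figure D2:**
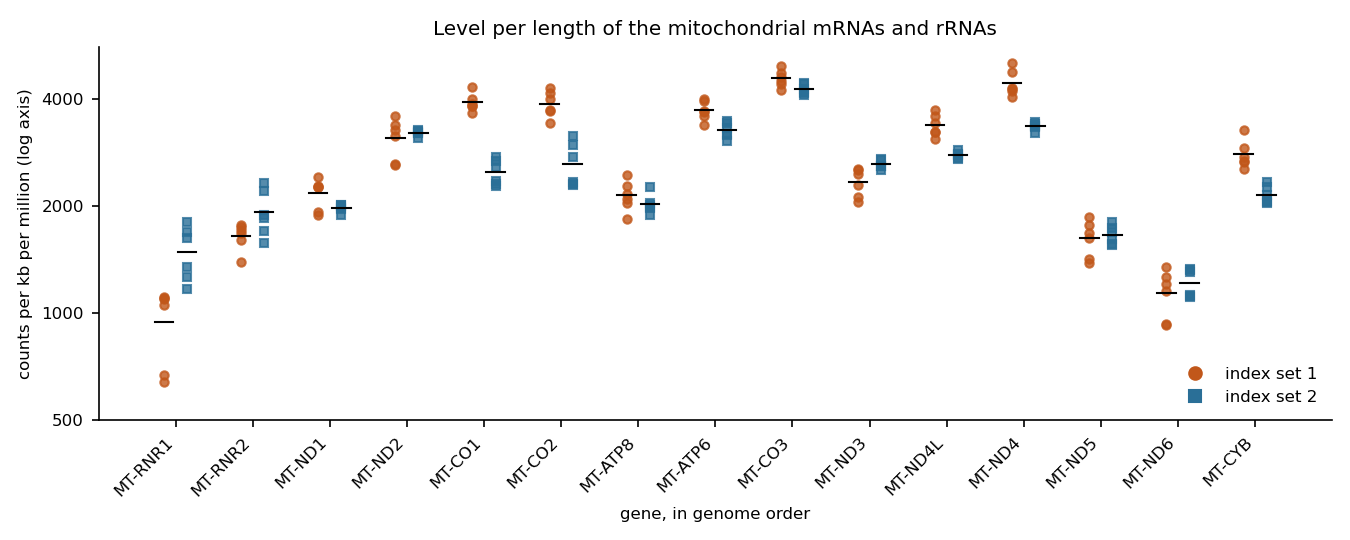
Level per length of the 13 mRNAs and 2 rRNAs in genome order (CPM per kb, log axis), with 1 point per library, index set as colour and shape and a black bar for the mean of 6 libraries. MT-CO1, MT-CO2, MT-ND4 and MT-CYB are higher in set 1, MT-RNR1 is higher in set 2, and MT-ND6 is the lowest mRNA in both.

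The rRNAs were below most mRNAs per length. MT-RNR2, the 16S rRNA of the large subunit of the mitochondrial ribosome, was at 1783 ± 259 and exceeded MT-RNR1, the 12S rRNA of the small subunit, at 1211 ± 361, in 12 of 12 libraries. The tRNA rows were lower again: MT-TY, for tyrosine, was at 291 ± 36.7, MT-TC, for cysteine, at 281 ± 33.6 and MT-TF at 251 ± 120. MT-TY and MT-TC share 1 base and lie on the minus strand, and their rows may also hold reads of the plus-strand precursor. MT-TD, for aspartate, was at 2.91, MT-TK, for lysine, at 0.446 and MT-TA, for alanine, at 0.319. These 3 tRNAs did not pass the filter on low counts, and the other 31 members were tested among 17262 genes. Fragments as short as a mature tRNA are usually lost in such libraries, and what share of the tRNA counts came from precursors was not tested.

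No mitochondrial transcript was called in the comparisons that switched on the tracer or added Dam-LaminB1. The tracer was induced by removing doxycycline, and Dam-LaminB1 by adding Shield1. Effects of these compounds therefore cannot be told apart from those of the tracer and Dam-LaminB1, and were not tested. Switching on the tracer in the VP16 clone called 0 of 31 members (edgeR quasi-likelihood test, Benjamini-Hochberg adjustment over all genes), against a background of 0% of all genes, and in the GFP clone also 0 of 31 against 0%. Adding Dam-LaminB1 called 0 of 31 in each clone, against 0% in each. The combined treatment against uninduced cells called 0 of 31 in each clone, against 0% in each. At an unadjusted p under 0.05 these 6 comparisons held 0 members each. The background at that p was 0.417% for the tracer in the VP16 clone and 0.724% in the GFP clone, 0.307% and 0.463% for Dam-LaminB1, and 1.09% and 1.32% for the combined treatment. DESeq2 and limma-voom also called 0 in each. A block for index set left the calls at 0, with 1 member at an unadjusted p under 0.05, in the comparison of VP16 tracer-Dam with VP16 tracer (background 1.13%). The test of a difference between the clones in the tracer response, and of that in the Dam-LaminB1 response, called 0 of 31 each against 0% each, again with 0 at an unadjusted p under 0.05 (backgrounds 0.545% and 0.29%), and 0 by DESeq2 and limma-voom. Since no gene of any kind was called in these comparisons, the counts of 0 say nothing particular about mitochondrial transcripts.

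The median sizes behind these counts were small for mRNAs. The median log2 change over the 13 mRNAs was -0.03 for the tracer in the VP16 clone and -0.07 in the GFP clone, and 0.01 and 0.06 for Dam-LaminB1. All 4 lay within the median SE of a single mRNA, 0.17. For all genes these 4 medians were between -0.00300 and 0.00670. MT-CO1, the catalytic subunit of complex IV, is given as 1 example. In the GFP clone of set 1 it was at 5587 CPM uninduced, 5866 with the tracer and 6500 with Dam, and in set 2 at 3459, 3535 and 3624. In the VP16 clone it was at 6006, 5922 and 6109 in set 1, and at 4041, 4316 and 4175 in set 2. Its values differed more between sets than between treatments within a set.

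For the tracer in the GFP clone, most members had opposite signs in the 2 sets, mRNAs included. The sign was the same in 4 of 13 mRNAs, 0 of 2 rRNAs and 1 of 17 tRNAs. In the VP16 clone it was the same in 4, 2 and 7. Median log2 differences in the GFP clone were -0.14 in set 1 and 0.01 in set 2 for mRNAs. They were -0.54 and 0.15 for rRNAs, and -0.82 and 0.22 for tRNAs. Among mRNAs, MT-ND6 was at -0.46 and 0.03. MT-RNR1 was at 1037 CPM in uninduced cells of set 1, 628 with the tracer and 599 with Dam, a log2 difference of -0.72 for the tracer. In set 2 the values were 1527, 1601 and 1713, a log2 difference of 0.07. The rows of MT-TF went the same way, with 18.4, 5.05 and 4.48 CPM in set 1 and 25.9, 28.2 and 31.8 in set 2. In the VP16 clone MT-RNR1 was at 1071, 1061 and 996 in set 1 and 1313, 1134 and 1215 in set 2. The low values belong to the same libraries that stood apart in the rest of the transcriptome. Their high DDIT3 and low LMNB1 are given above, and the part of that state in the rRNA and tRNA counts was not tested.

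Between the clones, 5 mRNAs had higher values in the VP16 clone throughout. MT-CO2 and MT-CO3 of complex IV, MT-ATP8 and MT-ATP6 of complex V, and MT-ND2 of complex I were each higher in the VP16 clone in 6 of 6 pairs of libraries matched for set and condition. The share of all genes with 6 of 6 pairs in 1 direction was not counted, so this pattern is not shown to be particular to these mRNAs. MT-CO2 lay at 1915 to 2902 CPM in the VP16 clone (median 2387) and 1552 to 2784 in the GFP clone (median 1957). Its ranges overlapped over all libraries, as did those of every tested member, since 0 of 31 had clones without overlap (background 10.7%). Within set 2 MT-CO2 was at 1552, 1568 and 1590 CPM in the GFP clone and at 1915, 2186 and 2049 in the VP16 clone, without overlap. Within set 1 it was at 2323, 2474 and 2784 in the GFP clone and at 2588, 2747 and 2902 in the VP16 clone, with overlap. The clones did not overlap in 4 of 31 members within set 1, against 33.7% of all genes, and in 13 of 31 within set 2, against 47% of all genes.

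Over the 3 conditions the fit without a block called 0 of 31 members, against 7.64% of all genes. At an unadjusted p under 0.05 it held 2 members, MT-TI and MT-ATP8 (background 23.7%). At that p DESeq2 held 1 and limma-voom 2, for which the share of all genes is not given here, and neither called any. Once the index set was a block, 3 of 31 members were called, all higher in the VP16 clone, against 20.9% of all genes and 9.03% higher. MT-CO2 was higher by 0.25 ± 0.07 (log2, SE; adjusted p = 0.0295 in edgeR), MT-ATP6 by 0.16 ± 0.04 (adjusted p = 0.0348) and MT-ATP8 by 0.16 ± 0.05 (adjusted p = 0.0477). MT-ATP8 and MT-ATP6 overlap, so they are not independent of each other. The share of members called was under that of all genes. Between uninduced cells alone, 0 of 31 were called without the block (background 0.278%) and with it (1.89%), with 0 at an unadjusted p under 0.05 in each (background 7.46% without the block), and DESeq2 and limma-voom also called 0.

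Without GFP tracer and GFP tracer-Dam of set 1, a fit chosen after the data were seen, the clone comparison called 14 of 31 members, against 33.3% of all genes. It rests on set 2 alone for the induced GFP conditions. Of these, 5 were higher in the VP16 clone (background 15.9%), all of them mRNAs: MT-CO2 by 0.33 ± 0.04 (adjusted p = 1.67e-05 in edgeR), MT-CO1 by 0.18 ± 0.04, MT-CYB by 0.14 ± 0.03, MT-ATP6 by 0.13 ± 0.04 and MT-ATP8 by 0.11 ± 0.04. Another 9 were lower (background 17.5%), among them both rRNAs and 5 tRNAs. MT-RNR2 had a log2 change of -0.28 ± 0.04 (adjusted p = 3.35e-05 in edgeR), MT-RNR1 of -0.34 ± 0.07, MT-TF of -0.55 ± 0.06 and MT-TV of -0.47 ± 0.09. MT-TL2, MT-TE and MT-TT, for leucine, glutamate and threonine, were lower too, as were MT-ND5 (-0.12 ± 0.04) and MT-ND6 (-0.18 ± 0.04). In uninduced cells this fit called 1 of 31, MT-CO2 at 0.21 ± 0.06, against 21% of all genes.

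**Figure D3:**
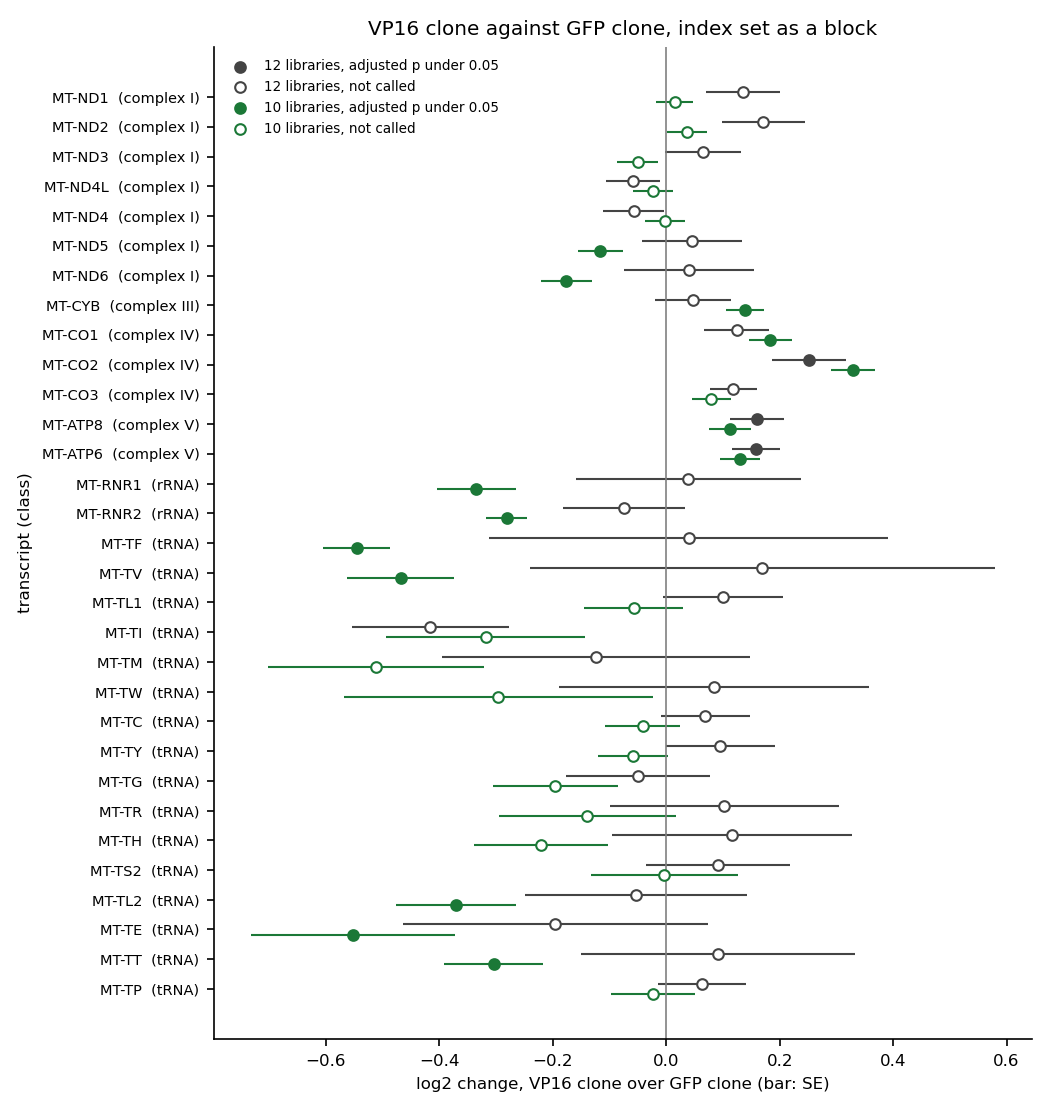
Log2 change of each tested member in the VP16 clone over the GFP clone, with index set as a block, in all 12 libraries (grey) and without GFP tracer and GFP tracer-Dam of set 1 (green); bars are SE and filled points passed an adjusted p of 0.05. MT-CO2, MT-ATP6 and MT-ATP8 are filled in both fits, and the rRNAs are filled only without those libraries.

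The library values of the larger rRNA run in opposite directions in the 2 sets. MT-RNR2 in set 2 was at 2897, 3417 and 3620 CPM in the GFP clone (uninduced, tracer, tracer-Dam) and at 2939, 2505 and 2679 in the VP16 clone. In set 1 it was at 2727, 2127 and 2443 in the GFP clone and at 2767, 2630 and 2648 in the VP16 clone. In uninduced cells the clones differed by 0.02 on the log2 scale in each set. With the tracer the VP16 clone was at 0.31 over the GFP clone in set 1 and at -0.45 in set 2, and with Dam at 0.12 and -0.43. MT-RNR1 also had opposite signs in induced cells of the 2 sets, at 0.76 and -0.50 with the tracer and 0.73 and -0.50 with Dam. In uninduced cells it was at 0.05 in set 1 and -0.22 in set 2.

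Between the index sets, members were called in both directions. In a fit with group and index set, 11 of 31 members were called, against 28.2% of all genes, and 17 had an unadjusted p under 0.05, against 41.9%. DESeq2 called 12 and limma-voom 11, for which the share of all genes is not given here. Of the 11 called in edgeR, 8 were lower in set 2 (background 15.6%) and 3 higher (background 12.6%). In 7 of 31 members the 2 sets of 6 libraries did not overlap at all, against 14.6% of all genes. In a fit on the 4 groups other than GFP tracer and GFP tracer-Dam, 14 of 31 were called, against 40.9% of all genes, with 11 lower (background 20.7%) and 3 higher (20.2%). In both fits the share of members called lay close to that of all genes.

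Among the mRNAs, MT-CO1 and MT-CO2 of complex IV had the largest differences in both fits. MT-CO1 lay at 5587 to 6500 CPM in set 1 (median 5964) and at 3459 to 4316 in set 2 (median 3832). Every library of set 2 was lower, by a log2 change of -0.64 ± 0.06 (adjusted p = 0.000446 in edgeR), and in the 4 groups by -0.57 ± 0.04. MT-CO2, which holds the copper centre that takes electrons from cytochrome c, lay at 2323 to 2902 CPM (median 2667) in set 1 and at 1552 to 2186 (median 1753) in set 2. Its log2 change was -0.55 ± 0.07 (adjusted p = 0.00114), and -0.46 ± 0.04 in the 4 groups. MT-CO3, the remaining subunit encoded in mitochondrial DNA, had a smaller difference. It lay at 3249 to 3843 CPM (median 3533) and at 3198 to 3540 (median 3324), and was lower in set 2 in 6 of 6 groups, with a log2 change of -0.09 ± 0.04 that was not called (adjusted p = 0.151). In the 4 groups it was called, at -0.11 ± 0.04.

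Complex I mRNAs were split. MT-ND4, a proton-pumping subunit, lay at 5592 to 6797 CPM in set 1 (median 5911) and at 4513 to 4825 in set 2 (median 4616), a log2 change of -0.39 ± 0.05 (adjusted p = 0.00218 in edgeR). MT-ND4L, on the same mRNA, lay at 921 to 1084 and at 799 to 850.3, a log2 change of -0.26 ± 0.05 (adjusted p = 0.00625). Neither overlapped between sets. MT-ND1, MT-ND2, MT-ND3, MT-ND5 and MT-ND6 were not called, with log2 changes of -0.12, 0.08, 0.19, 0.05 and 0.12. MT-ND2 lay at 2666 to 3798 CPM (median 3334) in set 1 and 3198 to 3474 (median 3373) in set 2. In the 4 groups MT-ND1 was called too, at -0.23 ± 0.03, and the signs of MT-ND2, MT-ND5 and MT-ND6 turned, to -0.05, -0.10 and -0.09, without a call.

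MT-CYB, the complex III subunit that oxidises ubiquinol, lay at 2882 to 3654 CPM in set 1 (median 3103) and at 2308 to 2721 in set 2 (median 2415), without overlap. Its log2 change was -0.37 ± 0.07 (adjusted p = 0.00651 in edgeR), and -0.26 ± 0.04 in the 4 groups. Of the complex V mRNAs, MT-ATP6 changed by -0.17 ± 0.04 (adjusted p = 0.0230), with overlapping ranges of 2256 to 2732 and 2069 to 2409 CPM, though it was lower in set 2 in 6 of 6 groups. MT-ATP8, whose end it shares, had a log2 change of -0.06 ± 0.05 (adjusted p = 0.345).

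The 12S rRNA went the other way. MT-RNR1 lay at 599 to 1071 CPM in set 1 (median 1017) and at 1134 to 1713 in set 2 (median 1420), without overlap. It was higher in set 2 by 0.68 ± 0.20 on the log2 scale (adjusted p = 0.0383 in edgeR). In the 4 groups the change was 0.31 ± 0.07 (adjusted p = 0.00680). The value was thus smaller without the 2 GFP groups, and called in both fits. MT-RNR2 lay at 2127 to 2767 CPM (median 2639) and at 2505 to 3620 (median 2918), a log2 change of 0.23 ± 0.11 (adjusted p = 0.147), and of 0.03 ± 0.04 in the 4 groups.

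Among the tRNAs, MT-TF and MT-TV, whose sequences flank the 12S rRNA above, had the largest values. MT-TF was counted 103 and 110 times in GFP tracer and GFP tracer-Dam of set 1, and 273 to 754 times in the other libraries. Its log2 change was 1.20 ± 0.36 (adjusted p = 0.0417 in edgeR), and 0.55 ± 0.06 in the 4 groups. MT-TV was counted 21 to 111 times in set 1 and 129 to 262 times in set 2. Its log2 change of 1.27 ± 0.42 was not called (adjusted p = 0.0563), while that of 0.54 ± 0.10 in the 4 groups was (adjusted p = 0.00110). MT-TG, for glycine, was higher by 0.42 ± 0.13 (adjusted p = 0.0424), and was not called in the 4 groups, at 0.28 ± 0.12. MT-TL1, for leucine, follows MT-RNR2 directly and was lower by a log2 change of -0.36 ± 0.11 (adjusted p = 0.0385), with 8.93 to 12.9 CPM in set 1 and 7.81 to 9.57 in set 2. MT-TC was lower by -0.25 ± 0.08 (adjusted p = 0.0472), and in the 4 groups MT-TY was called too, at -0.37 ± 0.06. The other tRNAs, at most 16.5 CPM each, were not called in either fit.

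**Figure D4:**
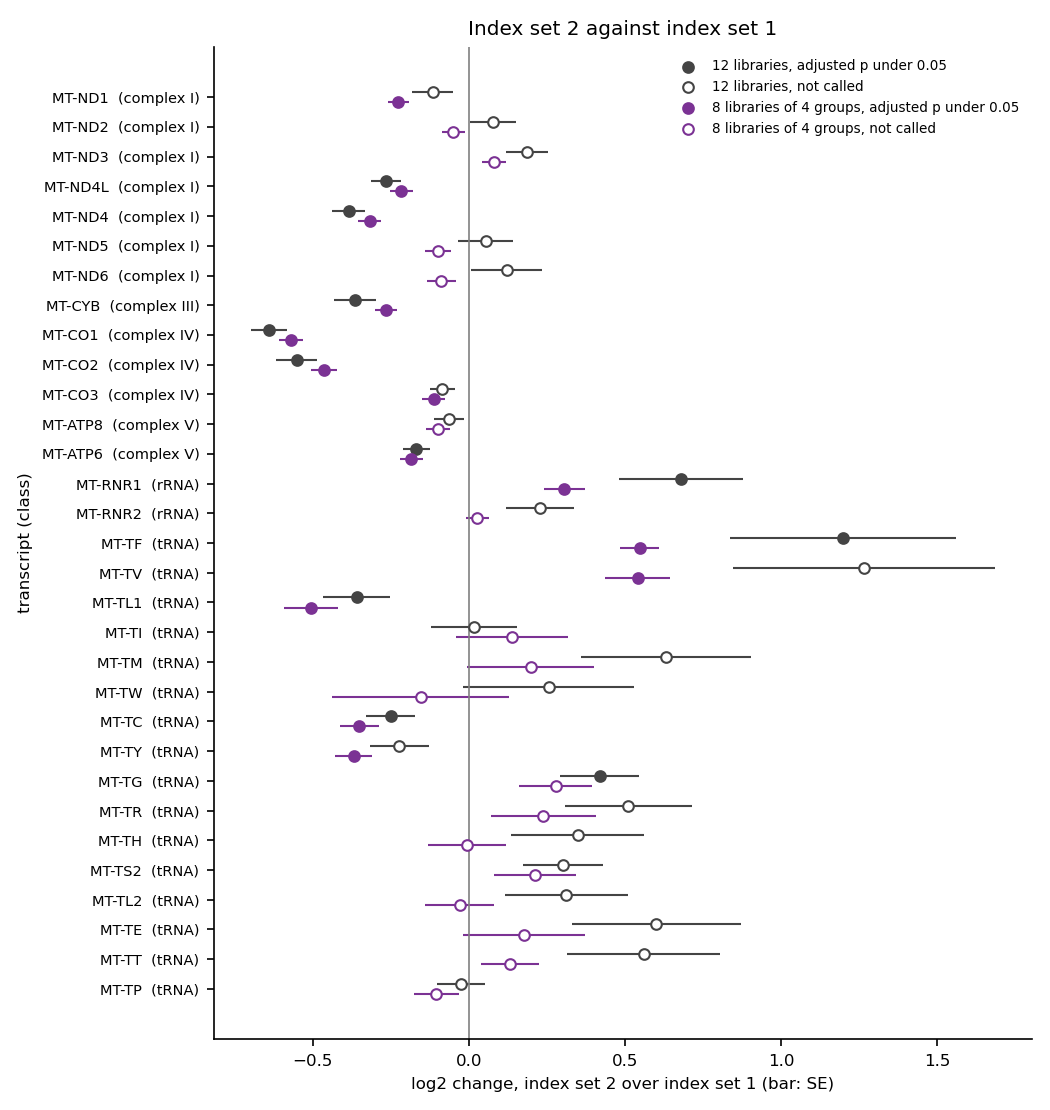
Log2 change of each tested member in index set 2 over index set 1, by role, in all 12 libraries (grey) and in the 8 libraries of the 4 groups other than GFP tracer and GFP tracer-Dam (purple); bars are SE and filled points passed an adjusted p of 0.05. MT-CO1, MT-CO2, MT-ND4 and MT-CYB lie left of 0 in both fits and MT-RNR1 and MT-TF right of 0, closer to 0 in the 8 libraries.

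**Figure D5:**
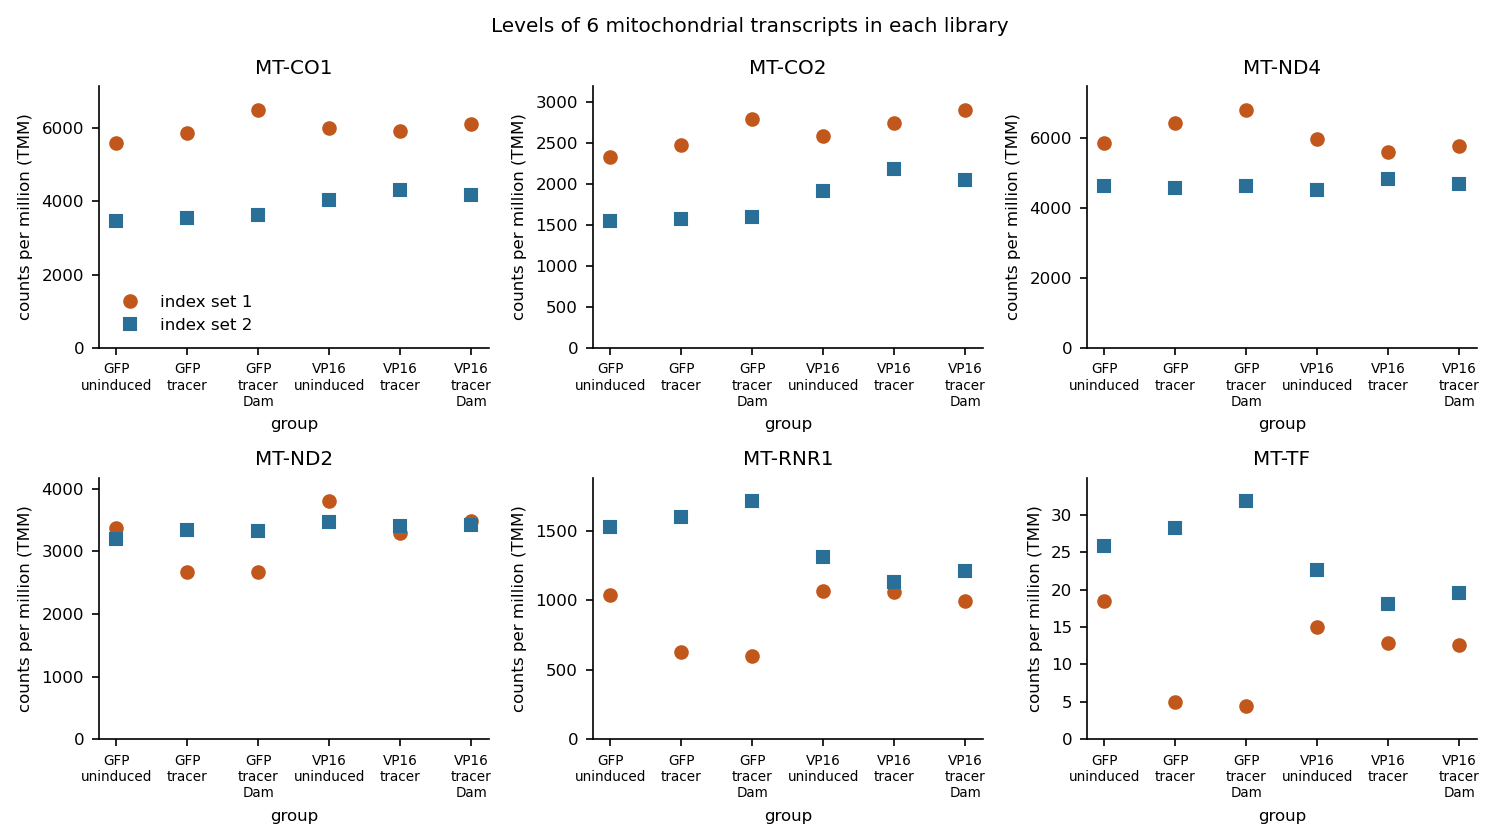
TMM-scaled CPM of 6 transcripts by group, with 1 point per library and the index set as colour and shape. MT-CO1, MT-CO2 and MT-ND4 of set 1 lie above set 2 in every group, MT-ND2 overlaps, and MT-RNR1 and MT-TF of set 1 lie below set 2, lowest in GFP tracer and GFP tracer-Dam.

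Ratios within a library do not depend on its depth or scaling. The first 4 given here pair a gene that differed between sets with another of the same class, so they describe those differences again. Per length, MT-CO1 stood at 1.07 to 1.65 times MT-ND2 in set 1 and at 0.714 to 0.858 times in set 2. MT-CO2 stood at 0.779 to 0.927 times MT-CO3 in set 1 and 0.547 to 0.708 times in set 2. MT-ND4 stood at 2.29 to 3.55 times MT-ND5 in set 1 and at 1.86 to 2.20 times in set 2. MT-RNR1 stood at 0.401 to 0.659 times MT-RNR2 in set 1 and at 0.730 to 0.861 times in set 2. None of these 4 ratios overlapped between the sets. The ratio of MT-ATP8 to MT-ATP6, at 0.543 to 0.661 over all 12 libraries, did overlap. So did the ratios of MT-CYB to MT-ND6 (1.98 to 3.54 in set 1 and 1.54 to 2.10 in set 2) and of MT-ND6 to MT-ND5 (0.651 to 0.725 and 0.697 to 0.768). MT-TF was counted 7.47 to 17.8 times per 1000 counts of MT-RNR1 in set 1 and 16.0 to 18.6 times in set 2, again with overlap, and MT-TV 1.64 to 5.22 and 4.80 to 6.45 times. The highest MT-CO1 to MT-ND2 ratios, 1.48 and 1.65, were those of GFP tracer and GFP tracer-Dam of set 1. The other 4 libraries of set 1 held 1.07 to 1.22.

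RNAs without a poly(A) tail also differed between the index sets. The 22 genes listed as RNAs without a poly(A) tail summed to 856 to 1323 CPM in set 1 and to 229 to 350.0 in set 2, without overlap. Most of each sum was RN7SL1, the RNA of the signal recognition particle, at 704 to 1181 CPM in set 1 and 169 to 272 in set 2. Of the 8 tested, 4 were lower in set 2 (all genes 15.6%) and 0 higher (12.6%), with a median log2 change of -1.36 against -0.01 over all genes. In the 4 groups 4 of 8 were lower (all genes 20.7%) and 0 higher, with a median of -0.76. RN7SL1 changed by -2.07 ± 0.16 (adjusted p = 0.000286 in edgeR) and the histone gene HIST1H2AC by -1.58 ± 0.09, and in the 4 groups by -2.04 ± 0.29 and -1.46 ± 0.06. Of the mitochondrial rRNAs, with short tails, MT-RNR1 differed in the opposite direction, and MT-RNR2 was not called in either fit. Whether tail length or capture had a part in any of these differences was not tested.

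Nuclear genes that make and serve mitochondrial RNA had few calls between sets over the 12 libraries and more in the 4 groups, as had all genes. Of all genes, 28.2% were called over 12 libraries (12.6% higher, 15.6% lower) and 40.9% in the 4 groups (20.2% higher, 20.7% lower). Of 17 transcription and replication genes, 2 were higher in set 2 and 0 lower, among them TFAM, which packages mitochondrial DNA and starts its transcription, at 0.24 ± 0.06 (adjusted p = 0.0202 in edgeR; 0.16 ± 0.04 in the 4 groups). The 4 groups gave 4 higher and 2 lower of 17. Of 28 genes for RNA processing, stability and turnover, 1 was higher and 3 lower: HSD17B10, a part of mitochondrial RNase P, at -0.15 ± 0.04, NSUN4, an rRNA methyltransferase, at -0.28 ± 0.09, and PDE12, which removes poly(A) from mitochondrial RNA, at -0.20 ± 0.06. All 3 were also lower in the 4 groups, at -0.15, -0.15 and -0.19, where the list gave 3 higher and 7 lower. Large-subunit proteins of the mitochondrial ribosome gave 1 higher and 4 lower of 47 tested (2 and 9 in the 4 groups), and small-subunit proteins 0 and 1 of 32 (1 and 8). The nuclear partners of the mitochondrial subunits gave 2 higher and 0 lower of 37 in complex I (2 and 6 in the 4 groups), 0 and 1 of 9 in complex III (0 and 2), 0 and 0 of 12 in complex IV (0 and 2), and 0 and 0 of 18 in complex V (0 and 3). Complex II, whose subunits are all nuclear, gave 0 of 4 in both fits. Median log2 changes of these lists lay between -0.03 and 0.05 over 12 libraries and between -0.08 and -0.02 in the 4 groups, beside -0.01 for all genes in each.

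Regulators of mitochondrial biogenesis differed in both directions. PPARGC1A, a coactivator of such genes, was low, at 4.72 to 5.79 CPM in the GFP clone of set 1, 2.66 to 3.43 in set 2, and 0.593 to 1.57 in the VP16 clone. It was lower in the VP16 clone by a log2 change of -1.88 ± 0.30 (adjusted p = 0.00858 in edgeR) and in set 2 by -0.76 ± 0.13 (adjusted p = 0.00462). Without the libraries that stood apart these values were -1.81 ± 0.17 and -0.66 ± 0.17. PPARGC1B, its relative, was at 12.6 and 12.8 CPM in GFP tracer and GFP tracer-Dam of set 1, at 21.2 to 28.4 in the other 4 libraries of set 1 and at 35.6 to 37.8 in set 2. It was higher in set 2 by 0.90 ± 0.18 (adjusted p = 0.00865), and by 0.58 ± 0.06 in the 4 groups. Of the 10 regulators, 3 were higher and 2 lower in set 2 (5 and 2 in the 4 groups), beside 28.2% and 40.9% of all genes called. In the VP16 clone 0 were higher and 1 lower (0 and 2 with the block, 0 and 4 in the 10 libraries), beside 7.64%, 20.9% and 33.3% of all genes.

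Among nuclear partners, clone differences occurred in both directions. Of all genes, 7.64% were called without the block, 20.9% with it and 33.3% in the 10 libraries, and the counts of each list are given in that order. In complex I, 3, 7 and 10 of 37 were called. NDUFA12, an accessory subunit, was higher in the VP16 clone by 0.46 ± 0.07 (adjusted p = 0.00630 in edgeR without the block; 0.40 ± 0.05 in the 10 libraries). NDUFV1, which holds the flavin that takes electrons from NADH, was at -0.38 ± 0.06 (-0.40 ± 0.04 in the 10 libraries), and NDUFC1 at -0.49 ± 0.09 (-0.60 ± 0.05). In complex V, 1, 3 and 4 of 18 were called. ATP5B, the catalytic beta subunit, was higher by 0.31 ± 0.06 (adjusted p = 0.0161; 0.25 ± 0.03 in the 10 libraries). In complex IV 0, 3 and 8 of 12 were called, the last with 6 higher and 2 lower. Of 28 genes for RNA processing and turnover, 1, 3 and 6 were called. REXO2, which degrades short RNA in mitochondria, was at -0.33 ± 0.06 (adjusted p = 0.0144; -0.37 ± 0.04 in the 10 libraries). In the large ribosomal subunit 3, 7 and 13 of 47 were called, and MRPL1 was at -0.59 ± 0.07 (-0.54 ± 0.05 in the 10 libraries).

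Copies of mitochondrial DNA in the nuclear genome could draw reads from their source genes. By name, 73 such copies had rows, with 42939 counts in all, or 0.441 for each 100 counts of the mitochondrial genes. MTND6P4 (chromosome 5, 134259813 to 134260334, GRCh37) held 22712 of these, equal to 13.7% of the counts of MT-ND6, and MTND4P12 (chromosome 5, 134262350 to 134263726) held 17035, equal to 1.19% of those of MT-ND4. MTND4P12 was lower in set 2 by a log2 change of -0.40 ± 0.05 (adjusted p = 0.00184 in edgeR), beside -0.39 for MT-ND4, and MTND6P4 was not called, at 0.12 ± 0.12, beside 0.12 for MT-ND6. In the 4 groups MTND4P12 was at -0.38 ± 0.05 and MTND6P4 at -0.08 ± 0.06, beside -0.32 for MT-ND4 and -0.09 for MT-ND6. Reads of a copy and its source cannot be told apart in a count table, so the level of MT-ND6 is the most uncertain of the mRNAs in this respect.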

How the data were processed

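RNA isolation used Trizol and library construction the Illumina TruSeq RNA kit, per the labels' protocols. Per the submitters' processing notes, TopHat 1.4.0, Bowtie 0.12.7, HTSeq and GRCh37 were used. The overlap mode and strand option of the counting are not stated there. The values are whole-number counts of reads per gene that the authors deposited without normalization. Without a stated strand setting, a row may also hold reads of the precursor of the other strand. This applies to the minus-strand rows of MT-ND6, MT-TC, MT-TY, MT-TE and MT-TP among others.

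Here, genes were kept by filterByExpr (17262, of them 31 members), scaled by TMM and fitted in edgeR 4.0.16 (quasi-likelihood, robust, R 4.3.3) with 1 coefficient per group over all 12 libraries (6 residual degrees of freedom), and with index set added (5). P-values were adjusted by Benjamini-Hochberg over all genes tested, at 0.05. The SE is the absolute log2 change divided by the square root of F. CPM values were TMM-scaled; shares and levels per length used plain library totals. Same-numbered libraries of different groups deviated together (correlations of 0.415 to 0.858 over 15 pairs of groups), so the replicate number, from the labels, was treated as pairing the libraries, and blocked values are given where they change a call. The members and gene lists were chosen with earlier results of these data known. All members could be named; from other lists up to 4 called genes per comparison with the smallest p, or 2 where none was called, and the 5 nuclear copies with most counts. LMNB1 was planned as a label check, but its values were not higher in tracer-Dam than in tracer cells. In the VP16 clone they were 122 and 151 CPM in set 1, and 176 and 180 in set 2. In the GFP clone they were 29.5 and 36.9 in set 1, and 193.5 and 202.5 in set 2. LMNB1 therefore gave no check of the Dam-LaminB1 label. DDIT3 and the marker genes were named in addition, with their values known. The fit was tested on simulated data. Alternatives were DESeq2 1.42.0, limma-voom 3.58.1, other scalings and filters, subsets of groups, the block and leaving out each library.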

Additional observations from a re-analysis of the deposited data

How the results depend on the processing

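For the 6 condition comparisons and both differences between clones in response, 0 members were called in each of 33 alternatives per comparison. Between uninduced clones 32 of 33 alternatives called 0, and the 10-library fit with replicate block, added after the data were seen, called 1. Over 3 conditions the clone comparison called 0 members, 3 with the replicate block, and 14 in that 10-library fit, beside 7.64%, 20.9% and 33.3% of all genes. With 1 library left out it called 0 to 4, with 4 without GFP tracer-Dam of set 2, 2 without GFP tracer-Dam of set 1 or GFP tracer of set 2, and 1 without VP16 tracer of set 1, all with the block in the fit. The replicate block changed no other call of a member. In the 10-library fit 12 of 31 members had another sign than in the fit without the block, 9 of them tRNAs, whose median went from 0.05 to -0.26. Of the 12, MT-ND6 (-0.18), MT-ND5 (-0.12) and MT-TT (-0.30) were called, and the cause was not tested. Between index sets 11 members were called (beside 28.2% of all genes), 6 without the low-count filter, and 5 to 8 with 1 library left out. Leaving out any library other than GFP tracer of set 1 lowered that count by more than 1.5 times. MT-CO1, MT-CO2, MT-ND4, MT-ND4L and MT-CYB passed in all 20 alternatives. With 1 of 12 libraries left out, MT-TL1 passed 4 times, MT-ATP6 3 times, MT-RNR1 and MT-TG 2 times each, and MT-TF and MT-TC 0 times, at adjusted p of up to 0.176 in edgeR. For the fits with 1 library left out, without the filter, or by DESeq2 and limma-voom, shares of all genes called are not given. Their counts show how the member calls moved, not how members differed from other genes. Of 1047 recomputed class medians, 1022 moved by less than 1 SE. The mean mitochondrial share was 3.62%, 4.22% without the counts of the 100 highest other genes and 3.22% for mRNAs only. Low counts kept MT-TA, MT-TD and MT-TK out of the tests, and 2 libraries per group limited each comparison of conditions.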
